A study of Mus musculus with 6 samples.

Results

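Genes that mark mast cells, 10 in number, were followed in mouse skin scars: the proteases Mcpt4, Cma1, Cpa3 and Tpsb2, the receptors Kit, Ms4a2 and Fcer1a, the mediator enzymes Hpgds and Hdc, and the transcription factor Gata2. They were chosen by gene symbol, with earlier results of these data known. All 10 were among the 17572 genes of the count table, and all 10 passed the filter on low counts.

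The libraries came from wild-type C57BL/6 mice, and each scar was taken 2 weeks after surgery. In the group with hypertrophic scars (HS, 3 libraries), wounds of the upper back were stretched and stitched onto the ribs. In the group with normal scars (NS, 3 libraries), wounds of the lower back were stitched where they lay, free of tension. Tension and body position therefore cannot be told apart. Whether each library stands for its own mouse is not stated in the labels, and a p-value here covers the scatter among these libraries alone, which could be technical.

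Mast cells are long-lived immune cells of the dermis that mature from bone marrow progenitors under the control of the receptor Kit and its ligand. Their granules hold chymases, tryptases and carboxypeptidase bound to heparin, together with histamine, and are released when IgE on the high-affinity receptor is cross-linked by antigen. In mice, the cells of the connective tissue type, which include those of the skin, make Mcpt4, Cma1, Cpa3 and Tpsb2, while those of the mucosal type make Mcpt1 and Mcpt2. In whole tissue, a change in the number of mast cells and a change in the RNA per cell cannot be told apart.

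Library totals ran from 20375395 to 27859889 counts, and a single count equalled 0.0359 to 0.0491 CPM on these raw totals. CPM is the count scaled to the library total, and the gene levels below use totals adjusted by the TMM factors of edgeR. The mast cell genes had between 11 and 1737 counts per library. The first principal component of log2 CPM (53.3% of the variance) separated the groups, and HS replicate 2, with a score of -10.2, lay nearer to NS (33.5 to 38.7) than HS replicates 1 and 3 (-57.8 and -40.5). Across all 14513 genes tested with edgeR's quasi-likelihood test, 8.85% were called, 6.33% higher in HS and 2.51% lower, at a Benjamini-Hochberg adjusted p under 0.05.

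Of the 10 mast cell genes, 7 were higher in HS, a share to be read against that 6.33%, and 0 were lower. Because the genes were chosen with earlier results of these data known, this contrast describes them and is no independent support. The 7 were all 4 proteases, Hpgds, Hdc and Fcer1a. Kit, Ms4a2 and Gata2 did not pass. DESeq2 also called 7 higher and 0 lower (11.1% and 5.66% of all tested genes), and limma-voom called 4 higher and 0 lower (4.52% and 1.99%). At an unadjusted edgeR p under 0.05, 7 were higher and 0 lower, beside 15.2% and 11.1% of all tested genes. The median log2 fold change of the 10 genes was 0.67, beside -0.01 over all tested genes. The HS and NS libraries did not overlap for these 7 genes, while 17.2% of all tested genes were higher in HS without overlap.

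The 7 calls depended on single libraries, as did those of the whole table. All 7 passed without HS replicate 1 and without HS replicate 2. None passed without HS replicate 3 (adjusted p from 0.0664 to 0.188), without NS replicate 1 (0.0884 to 0.151), without NS replicate 2 (0.0955 to 0.144) or without NS replicate 3 (0.0556 to 0.135), although 7 had an unadjusted p under 0.05 in each of these 4 edgeR fits. Over all genes, 2854 of 14659 had such an unadjusted p without HS replicate 3 and 3037 of 14792 without NS replicate 1. It was 2934 of 14796 without NS replicate 2 and 3274 of 14721 without NS replicate 3. In the same fits the share of all genes called higher at an adjusted p under 0.05 was between 0.135% and 0.832%. Without HS replicate 2 it was 13.5%.

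**Figure D1:**
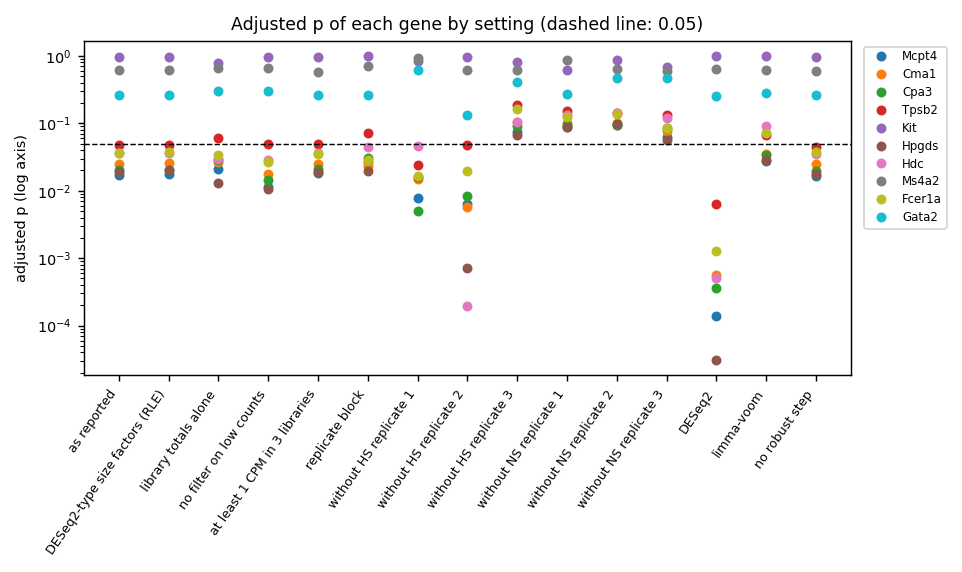
Adjusted p (y axis, log scale) of each mast cell gene in the reported fit and in 14 alternative fits, with the 0.05 threshold dashed. Kit, Ms4a2 and Gata2 stay above the line in every fit, and the other 7 genes lie above it in the fits without HS replicate 3 or without an NS replicate.

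**Figure D2:**
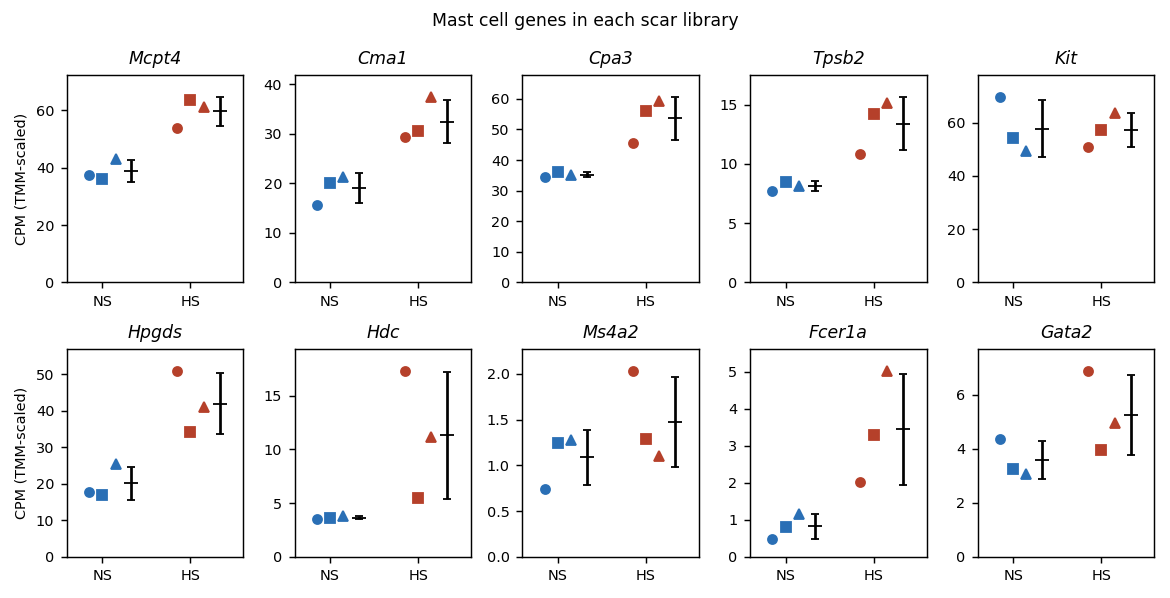
CPM of the 10 mast cell genes (y axis, from 0) in each NS library (blue) and HS library (red), with circles, squares and triangles for replicates 1, 2 and 3 and the mean ± SD (n = 3) in black. The 3 HS points lie above the 3 NS points for Mcpt4, Cma1, Cpa3, Tpsb2, Hpgds, Hdc and Fcer1a, and the groups overlap for Kit, Ms4a2 and Gata2.

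All 4 granule proteases rose in HS, by 1.53-fold to 1.70-fold. Mcpt4, a chymase (chromosome 14, 56059629 to 56062313 on GRCm38), stood at 54.0, 63.8 and 61.2 CPM in HS replicates 1 to 3. In NS replicates 1 to 3 its level was 37.3, 36.1 and 43.1 CPM. Every HS library was above every NS library, and the group means were 59.6 ± 5.08 and 38.9 ± 3.73 CPM (SD, n = 3). The rise was 1.53-fold (log2 fold change 0.62 ± 0.113, SE, edgeR adjusted p = 0.0171).

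Cma1 encodes the other chymase of connective tissue mast cells and lies in the same protease cluster (chromosome 14, 55941451 to 55944675). It had 29.3, 30.6 and 37.5 CPM in the HS libraries and 15.7, 20.2 and 21.4 CPM in the NS libraries. HS replicate 3 was the highest and NS replicate 1 the lowest, with no overlap. The rise was 1.70-fold (log2 fold change 0.77 ± 0.161, SE, edgeR adjusted p = 0.0246).

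Cpa3, the mast cell carboxypeptidase (chromosome 3, 20215620 to 20242181), was nearly level among the NS libraries, with 34.3, 35.98 and 35.1 CPM. The HS libraries spread more, at 45.7, 56.0 and 59.2 CPM, and all lay above NS. The fold change was 1.53 (log2 fold change 0.61 ± 0.119, SE, edgeR adjusted p = 0.0202).

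Tpsb2, a tryptase (chromosome 17, 25366305 to 25369098), had 10.8, 14.2 and 15.1 CPM in HS and 7.74, 8.50 and 8.16 CPM in NS. It did not overlap between groups and was 1.65-fold higher in HS. Its adjusted p was the largest of the 7 called genes (0.0474 by edgeR), and it did not pass with library totals alone as the scaling (adjusted p = 0.0598) or with limma-voom (adjusted p = 0.0672).

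Near-identical gene copies could split reads of such genes. Of 1009 stretches of 100 bases in Mcpt4 transcripts, 1 also occurred in another gene's transcripts (Cma2), and of 3203 in Ms4a2 transcripts, 13 did (Ms4a4b). The other 8 genes shared 0. Exons of none of the 10 genes overlapped an exon of another annotated gene.

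Of 8 other mast cell proteases in the table, 6 had too few counts to test. Mcpt1 and Mcpt2, the mucosal chymases, had at most 3 counts and 1 count in any library, and Mcpt9 had at most 1. Each was thus at or under the floor of 3 counts (0.108 to 0.147 CPM on raw totals), which covers counting error only. Tpsab1, a tryptase whose product C57BL/6 mice are known to lack, had 6, 3 and 4 counts in HS and 0 in each NS library. Cma2 had 20 counts in NS replicate 1 and at most 8 in any other library. Ctsg, the protease cathepsin G, had 11, 6 and 4 counts in HS and 0, 0 and 4 in NS. Tpsg1, a membrane-anchored tryptase, and Gzmb, a granzyme also made by cytotoxic lymphocytes, were the 2 genes of this list with enough counts to test. Neither passed in the reported edgeR fit (adjusted p = 0.761 and adjusted p = 0.0602). EdgeR called 1 gene of the list higher with a filter of at least 1 CPM in 3 libraries, and 1 without HS replicate 2. Of all genes, 6.71% and 13.5% were called higher in those fits. Of these 2 genes, Gzmb alone had an unadjusted edgeR p under 0.05 and was called by DESeq2. It had 1.57 ± 0.565 CPM in HS and 0.360 ± 0.191 in NS (SD, n = 3) with no overlap.

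Of the 9 genes with a promoter sequence in the RefSeq table (GRCm38.p6), 5 carried GATAA, the core of the motif that GATA factors such as Gata2 bind, on either strand in the 250 bases before the start. Of all 32851 promoter windows of that length, 22.6% held it. Here and for the second motif below, the members are counted by gene and the share by window. Some genes have several windows, so these units are not alike. These 5 are shown so that the element can be seen in 4 genes that rose in HS and in Ms4a2, which did not pass. Capitals mark GATAA or its reverse complement TTATC, and each is written 5′ to 3′ on the gene's own strand. CANNTG, the E-box that Mitf and related factors bind, was searched as well on both strands and occurred in 5 of the 9 genes and in 66.2% of all windows.

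Cpa3 (chr3:20242182-20242431, minus strand): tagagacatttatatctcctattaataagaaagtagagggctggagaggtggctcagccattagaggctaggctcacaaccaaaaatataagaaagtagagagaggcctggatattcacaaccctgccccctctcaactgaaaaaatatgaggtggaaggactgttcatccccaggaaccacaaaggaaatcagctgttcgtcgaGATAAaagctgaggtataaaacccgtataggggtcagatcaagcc

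Mcpt4 (chr14:56062311-56062560, minus strand): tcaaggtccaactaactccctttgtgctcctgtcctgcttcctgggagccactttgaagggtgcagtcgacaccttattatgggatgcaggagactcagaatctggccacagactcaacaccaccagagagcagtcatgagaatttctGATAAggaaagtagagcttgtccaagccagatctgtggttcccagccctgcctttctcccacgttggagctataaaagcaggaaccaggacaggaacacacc

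Cma1 (chr14:55944676-55944925, minus strand): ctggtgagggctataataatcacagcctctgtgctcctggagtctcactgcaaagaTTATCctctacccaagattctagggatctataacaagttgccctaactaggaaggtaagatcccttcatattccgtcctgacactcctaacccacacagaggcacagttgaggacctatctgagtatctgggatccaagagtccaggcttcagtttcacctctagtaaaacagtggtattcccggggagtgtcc

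Fcer1a (chr1:173227230-173227479, minus strand): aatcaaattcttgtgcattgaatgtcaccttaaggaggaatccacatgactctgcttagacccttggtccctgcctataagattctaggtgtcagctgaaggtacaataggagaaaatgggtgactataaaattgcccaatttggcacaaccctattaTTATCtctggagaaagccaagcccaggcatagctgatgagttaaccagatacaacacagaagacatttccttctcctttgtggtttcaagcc

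Ms4a2 (chr19:11623720-11623969, minus strand): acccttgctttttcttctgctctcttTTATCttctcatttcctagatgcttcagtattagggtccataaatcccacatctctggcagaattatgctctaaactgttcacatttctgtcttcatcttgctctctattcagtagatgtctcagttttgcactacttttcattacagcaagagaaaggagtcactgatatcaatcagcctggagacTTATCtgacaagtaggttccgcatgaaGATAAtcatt

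The windows of Cpa3, Mcpt4, Cma1 and Fcer1a each held 1 match and that of Ms4a2 held 3. Those of Hdc and Hpgds, both higher in HS, and of Kit and Gata2 held 0. Tpsb2 was not among the 9 genes. A match of these letters is a description of the sequence and not of binding.

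Of the 3 subunit genes of the IgE receptor, Fcer1a passed and Ms4a2 and Fcer1g did not, and the difference between them was not tested. Fcer1a encodes the alpha chain, which binds IgE (chromosome 1, 173221284 to 173227214), and had the largest fold change of the 10 genes. It stood at 2.03, 3.30 and 5.02 CPM in HS and at 0.481, 0.817 and 1.16 CPM in NS. The rise was 4.18-fold (log2 fold change 2.06 ± 0.493, SE, edgeR adjusted p = 0.0366; with limma-voom adjusted p = 0.0725). It rested on 54, 74 and 137 counts in HS and 11, 17 and 29 in NS.

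Ms4a2, the beta chain that amplifies the signal (chromosome 19, 11615523 to 11623719), had 2.03, 1.29 and 1.10 CPM in HS and 0.743, 1.25 and 1.28 CPM in NS. The groups overlapped, and HS replicate 1 stood highest, while HS replicates 2 and 3 lay near or within the NS range. Its log2 fold change of 0.43 ± 0.486 (SE) did not pass (edgeR adjusted p = 0.614). With 17 to 54 counts per library its standard error was larger than the difference.

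Fcer1g, the gamma chain shared with other Fc receptors and made by many myeloid cells, had 36.2 ± 20.1 CPM in HS and 13.6 ± 2.61 in NS (SD, n = 3) and did not pass (edgeR adjusted p = 0.0833). Of 14 tested genes of IgE receptor signalling, 3 passed, all higher, and the median log2 fold change was 0.62. At an unadjusted edgeR p under 0.05, 8 were higher and 0 lower, beside 15.2% and 11.1% of all tested genes. DESeq2 called 6 higher and 0 lower, beside 11.1% and 5.66%. The 3 that passed with edgeR were the adaptors Lat2 (2.17-fold) and Lcp2 (2.73-fold) and the kinase Lyn (2.63-fold). Each of these is also used by other leukocytes. The edgeR count was 9 without HS replicate 2, where 13.5% of all genes were called higher in place of 6.33%, and 0 without HS replicate 3 and without NS replicate 1, 2 or 3.

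Basophils carry the same receptor. Of the basophil markers, Prss34 had 1, 1 and 2 counts in HS and 0 in NS, Cd200r3 had 42, 19 and 10 counts in HS and 0, 18 and 21 in NS, and Mcpt8 was not analysed here. The summed level of the 5 basophil markers measured ran from 40.6 to 69.2 CPM in HS and from 43.4 to 48.0 CPM in NS, most of it from Il6ra, a cytokine receptor of many cells. None of the 4 tested passed by edgeR, DESeq2 or limma-voom with all libraries, and 0 had an unadjusted edgeR p under 0.05. Without HS replicate 2, edgeR called 1 basophil marker higher, beside 13.5% of all genes. The part of basophils in the rise of Fcer1a was not tested.

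Kit, the receptor of stem cell factor (chromosome 5, 75574916 to 75656722), did not pass the test. It had 50.8, 57.2 and 63.6 CPM in HS and 69.8, 54.1 and 49.4 CPM in NS. The highest and the lowest value were both NS libraries. The log2 fold change was -0.01 ± 0.144 (SE, edgeR adjusted p = 0.965), and it was 0.07 without HS replicate 1 and 0.13 without NS replicate 1.

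Melanocytes of the hair follicle also express Kit. The 8 melanocyte markers had a median log2 fold change of -0.66, and Pmel, a protein of the melanosome matrix, was lower in HS, at 110 ± 33.2 CPM beside 211 ± 23.2 in NS (SD, n = 3, edgeR adjusted p = 0.0405), a call lost with no filter on low counts, without HS replicate 3 and without any 1 of the NS replicates. Without HS replicate 2, which raised the calls over all genes as well, 6 melanocyte markers were called lower, beside 1257 of 14812 genes. DESeq2 called 5 lower with all libraries, beside 5.66% of all tested genes. Summed melanocyte markers were 383, 758 and 569 CPM in HS replicates 1 to 3 and 1004, 935 and 843 CPM in NS replicates 1 to 3. Among the NS libraries, Kit and this sum both fell from replicate 1 to replicate 3. Among the HS libraries both were lowest in replicate 1, as were the 4 proteases. Kit was highest in HS replicate 3 and the sum in HS replicate 2. The part of melanocytes in the level of Kit was not tested.

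Kitl, the ligand of Kit, had 10.7 ± 3.68 CPM in HS and 12.7 ± 2.07 in NS (SD, n = 3; log2 fold change -0.25 ± 0.259, SE, edgeR adjusted p = 0.578). Of 9 tested factors of mast cell growth and recruitment, 1 passed with edgeR, beside 6.33% of all tested genes called higher. A further count, at an unadjusted edgeR p under 0.05, was 6 higher, beside 15.2% of all tested genes. DESeq2 called 6 higher, beside 11.1%. The gene that passed was Il33, an alarmin released by damaged epithelial and stromal cells that acts on mast cells, at 122, 95.0 and 126 CPM in HS against 24.4, 33.1 and 33.7 CPM in NS. Every HS library was well above NS (3.76-fold, edgeR adjusted p = 0.00184). Il33 was called in all 14 alternative fits, those without 1 library included. The edgeR count of this list was 7 without HS replicate 2 (13.5% of all genes) and 1 in the other fits without a library. Il4, a cytokine of mast cells and type 2 lymphocytes, had 3, 2 and 8 counts in HS and 0 in NS.

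Il1rl1 encodes the receptor of IL-33 and is expressed by mast cells, regulatory T cells and innate lymphoid cells, as well as other cells. Of 15 tested genes in the list of other mast cell identity genes it alone passed, beside 6.33% of all tested genes called higher. Its level was 96.0, 22.8 and 48.2 CPM in HS and 5.47, 5.72 and 6.12 CPM in NS. The HS libraries spread widely among themselves, and the lowest was still above every NS library. The rise was 9.64-fold (log2 fold change 3.27 ± 0.524, SE, edgeR adjusted p = 0.0201). Its log2 fold change was 2.62 without HS replicate 1 and 3.64 without HS replicate 2. In the list, 4 genes were higher and 2 lower at an unadjusted edgeR p under 0.05, beside 15.2% and 11.1% of all tested genes. DESeq2 called 3 higher and 1 lower, beside 11.1% and 5.66%. The edgeR count was 3 without HS replicate 1 and 4 without HS replicate 2, beside 5.06% and 13.5% of all genes called higher. The call of Il1rl1 was lost without HS replicate 3, without any 1 of the NS replicates and, narrowly, with limma-voom (adjusted p = 0.0501).

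Of the Mrgpr receptors, 3 were tested and none passed with edgeR, although Mrgprb1 had an unadjusted edgeR p of 0.0105. Mrgprb1, a relative of Mrgprb2, had 13.1 ± 2.98 CPM in HS and 7.75 ± 1.57 in NS (SD, n = 3) with no overlap, and did not pass (edgeR adjusted p = 0.0785). Mrgprb2, the receptor through which many peptides and drugs activate mouse skin mast cells, had 9.50 ± 2.44 and 10.9 ± 2.45 CPM, and the groups overlapped (log2 fold change -0.19 ± 0.248, SE, adjusted p = 0.672). Mrgprx2 had 3.43 ± 0.363 and 2.41 ± 0.810 CPM (adjusted p = 0.369). Mrgprb8 had 2 counts in HS replicate 2 and 0 elsewhere.

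Other genes of mast cell identity included Srgn, the core protein of granule proteoglycans in mast cells and other leukocytes. It had 76.1 ± 43.4 CPM in HS and 25.3 ± 3.76 in NS (SD, n = 3) and missed the threshold (edgeR adjusted p = 0.0611). Mitf, a transcription factor of mast cells and melanocytes, had 78.1 ± 1.74 and 90.0 ± 2.91 CPM (adjusted p = 0.132), with every HS library below every NS library. Cyp11a1, a steroid side chain enzyme found in mast cells, had 4.43 ± 0.495 and 3.06 ± 0.922 CPM (adjusted p = 0.314). Ndst2, which sulphates the heparin of mast cell granules and is active in many tissues, had 48.9 ± 2.93 and 49.2 ± 2.55 CPM (adjusted p = 0.974).

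**Figure D3:**
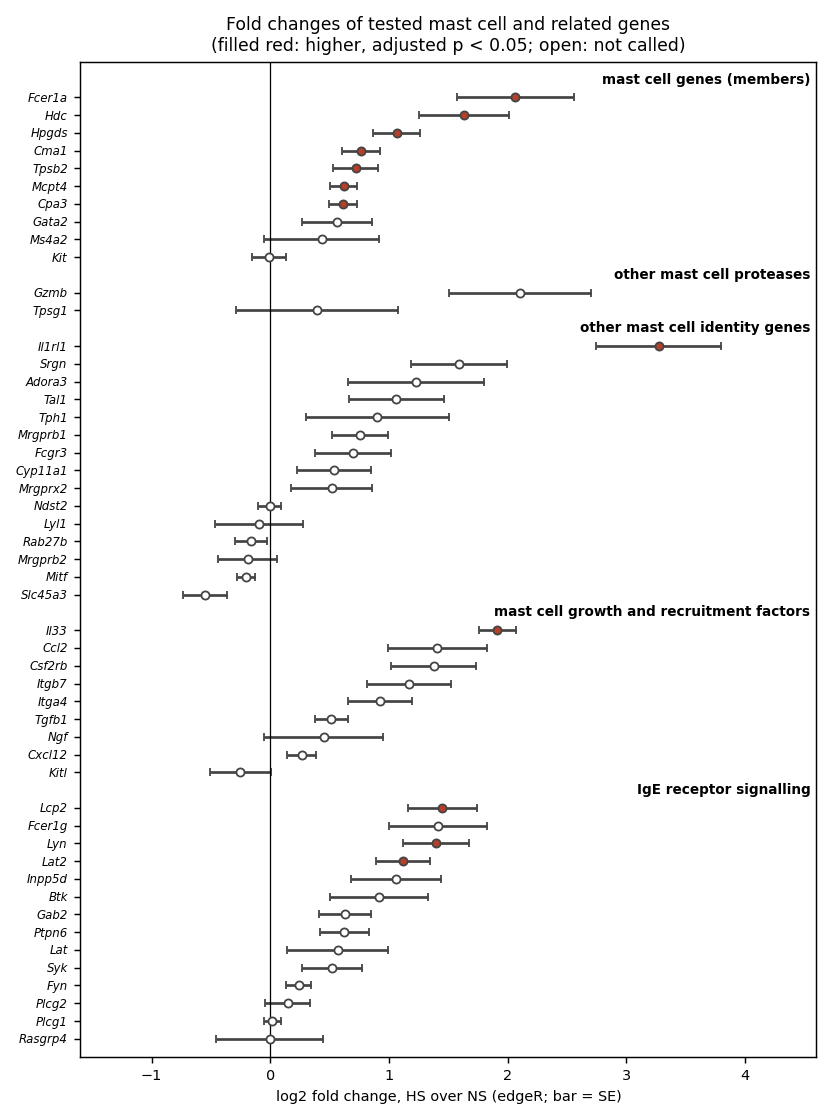
Log2 fold change of HS over NS (x axis, edgeR, bars are SE, 3 libraries a group) for each tested gene of 5 lists, with red points for genes called higher and open points for genes not called. The called mast cell genes run from Cpa3 at 0.61 to Fcer1a at 2.06, Kit lies at -0.01, and Il1rl1 at 3.27 is the largest point.

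Both enzymes that make mast cell mediators rose in HS. Hpgds, the hematopoietic prostaglandin D2 synthase (chromosome 6, 65117293 to 65144908), had 50.9, 34.1 and 41.1 CPM in HS and 17.9, 17.1 and 25.3 CPM in NS. Its lowest HS library, replicate 2, was above its highest NS library. The rise was 2.09-fold (log2 fold change 1.06 ± 0.197, SE, edgeR adjusted p = 0.0192).

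Hdc, the enzyme that makes histamine (chromosome 2, 126593667 to 126619299), had 17.3, 5.48 and 11.1 CPM in HS. The NS libraries were close together at 3.54, 3.603 and 3.80 CPM. The groups did not overlap, but the HS libraries differed from each other more than HS replicate 2 differed from NS. The rise was 3.10-fold (log2 fold change 1.63 ± 0.380, SE, edgeR adjusted p = 0.0362) and 1.19 on the log2 scale without HS replicate 1. It did not pass with limma-voom (adjusted p = 0.0910).

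Both enzymes are made by other cells as well, Hdc by immature myeloid cells and neutrophils and Hpgds by some macrophages and type 2 lymphocytes. Of 6 tested neutrophil markers, 4 were called higher and 0 lower, beside 6.33% and 2.51% of all tested genes. The neutrophil markers were on average 2.98, 1.99 and 2.85 above NS on the log2 scale in HS replicates 1 to 3. The macrophage markers, of which 0 of 9 passed with edgeR, differed from NS by 0.995, -0.25 and 0.43. Of these 9, 5 were higher and 1 lower at an unadjusted edgeR p under 0.05, beside 15.2% and 11.1% of all tested genes. DESeq2 called 4 higher and 1 lower, beside 11.1% and 5.66%. With edgeR 5 macrophage markers were called higher without HS replicate 2 and 3 with no robust step, beside 13.5% and 6.84% of all genes. Without HS replicate 1, 1 macrophage marker was called lower, beside 343 of 14658 genes. Summed, neutrophil markers ran from 137 to 402 CPM in HS and from 45.0 to 55.3 CPM in NS, and macrophage markers from 1067 to 2883 and from 829 to 1025 CPM. The count of neutrophil markers called higher was 0 without NS replicate 2 or 3, beside 0.135% and 0.251% of all genes. It was 1 without NS replicate 1, beside 0.446%. Ly6g, a defining marker of neutrophils, had 13, 0 and 4 counts in HS and 0 in NS. The part of these cells in the rise of Hdc and Hpgds was not tested.

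In the prostaglandin D2 and leukotriene C4 pathway around Hpgds, 0 of 10 tested genes passed with edgeR. At an unadjusted edgeR p under 0.05, 1 was higher and 2 were lower, beside 15.2% and 11.1% of all tested genes. DESeq2 called 1 higher, beside 11.1%. Without HS replicate 2, edgeR called 1 higher and 1 lower, beside 2000 and 1257 of all 14812 genes in that fit. Ptgs2, the inducible cyclooxygenase, had 8.66 ± 4.29 CPM in HS and 3.85 ± 1.122 in NS (SD, n = 3, adjusted p = 0.0912). Ptgds, the other prostaglandin D2 synthase, had 17.3 ± 2.77 and 25.7 ± 6.89 CPM (adjusted p = 0.122). Of the histamine genes, the receptor Hrh1 (adjusted p = 0.753) and the inactivating enzyme Hnmt (adjusted p = 0.974) were tested with edgeR. Neither had an unadjusted p under 0.05 or was called by DESeq2.

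Gata2, a transcription factor that mast cells need for their development (chromosome 6, 88193891 to 88207032), had 6.88, 3.97 and 4.94 CPM in HS and 4.37, 3.27 and 3.08 CPM in NS. HS replicate 2 lay below NS replicate 1, so the groups overlapped, and the log2 fold change of 0.56 ± 0.297 (SE) did not pass (edgeR adjusted p = 0.267). Endothelial cells also express Gata2. Of 10 endothelial markers, 9 were called higher and 0 lower, beside 6.33% and 2.51% of all tested genes. Their mean log2 differences from NS were 1.42, 0.74 and 1.39 in HS replicates 1 to 3. Their summed levels were 394 to 636 CPM in HS and 230 to 241 CPM in NS. The count of endothelial markers called was 2 without HS replicate 3, beside 0.832% of all genes called higher. It was 0 without NS replicate 1, 2 or 3, beside 0.446%, 0.135% and 0.251%. The part of endothelial cells in the level of Gata2 was not tested.

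Among the HS libraries the genes fell into 2 sets by the place of HS replicate 1. Mcpt4, Cma1, Cpa3, Tpsb2, Kit and Fcer1a were lowest in HS replicate 1, whereas Hpgds, Hdc, Ms4a2 and Gata2 were highest there. The order of HS replicates 2 and 3 differed within each set. These orders are over 3 libraries and carry no test. HS replicate 1 was also the library with the largest mean of the pan-leukocyte markers, 1.71 above NS on the log2 scale, while HS replicates 2 and 3 were 0.18 and 0.92 above. Of the pan-leukocyte markers 1 of 4 was called higher and of the lymphatic markers 2 of 6, beside 6.33% of all tested genes. Of the T cell and innate lymphoid markers 2 of 8 were called higher. Of the hair follicle markers 1 of 6 was called lower, beside 2.51%. At an unadjusted edgeR p under 0.05, 3 pan-leukocyte, 6 lymphatic and 4 lymphoid markers were higher, beside 15.2% of all tested genes. There, 1 lymphoid and 5 hair follicle markers were lower, beside 11.1%. DESeq2 called 3 pan-leukocyte, 5 lymphatic and 3 lymphoid markers higher, beside 11.1%, and 1 lymphoid and 2 hair follicle markers lower, beside 5.66%. Without HS replicate 2, edgeR called 3 pan-leukocyte, 2 lymphatic and 3 lymphoid markers higher, beside 13.5% of all genes. It called 1 lymphoid and 5 hair follicle markers lower there, beside 1257 of 14812 genes. Without NS replicate 2 or 3 all of these edgeR counts were 0.

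**Figure D4:**
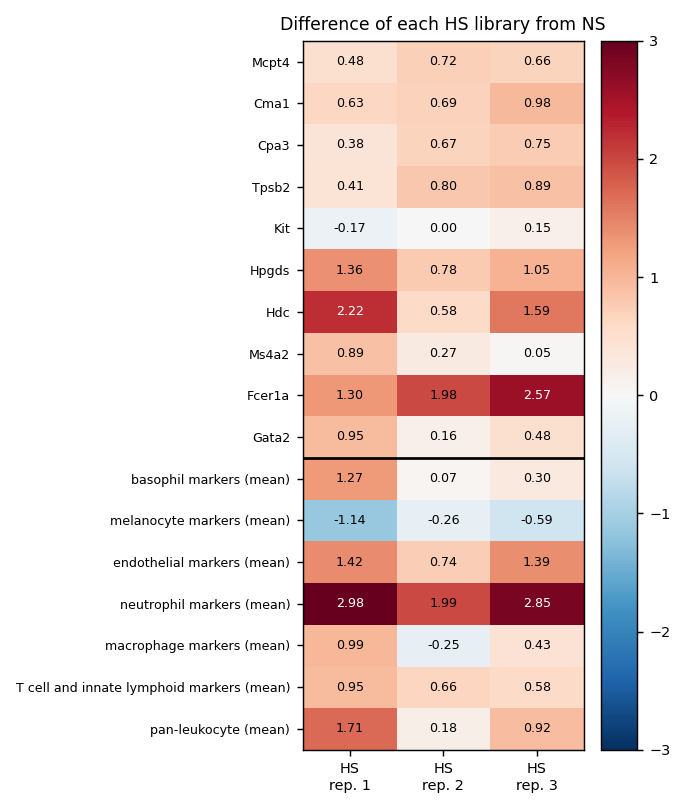
Difference of each HS library (columns) from the mean of the 3 NS libraries in log2 CPM, for each mast cell gene (upper rows) and as the mean over tested markers of other cell types (lower rows), with red above NS and blue below. The 4 proteases lie between 0.38 and 0.98 in every HS library, while Hdc runs from 0.58 in HS replicate 2 to 2.22 in HS replicate 1.

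To ask whether the genes moved by 1 common factor, each was divided by Cpa3 in the same library, which removes the library scaling. The log2 ratio of Mcpt4 to Cpa3 was 0.16 ± 0.10 in HS and 0.14 ± 0.15 in NS (SD, n = 3), and that of Tpsb2 was -2.00 ± 0.06 and -2.10 ± 0.03. The ratio of Cma1 was 0.17 higher in HS. In all 3 the groups overlapped.

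Kit and Fcer1a were the genes whose ratio to Cpa3 did not overlap between groups. The share of all genes with such a ratio was not computed, so this does not set the 2 apart. On CPM alone, 17.2% of all tested genes were higher in HS without overlap and 15.2% lower. The ratio of Kit was 0.15, 0.03 and 0.10 in HS and 1.02, 0.59 and 0.49 in NS, a difference of -0.605. The ratio of Fcer1a was -4.44, -4.05 and -3.54 in HS and -5.92, -5.31 and -4.83 in NS, a difference of 1.34. Each had p = 0.1 in a two-sided exact permutation test, the smallest that 3 against 3 libraries allow, and an adjusted p of 0.45 over the 9 ratios, so neither passed. Hpgds (0.47 higher in HS) and Hdc (0.86 higher) overlapped between groups. For Hpgds, HS replicates 2 and 3 lay within the NS range and HS replicate 1 alone above it, and the difference was 0.21 without HS replicate 1. For Hdc, HS replicate 2 lay just below the NS range, and the difference was 0.37 without HS replicate 1 and 1.34 without HS replicate 2.

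**Figure D5:**
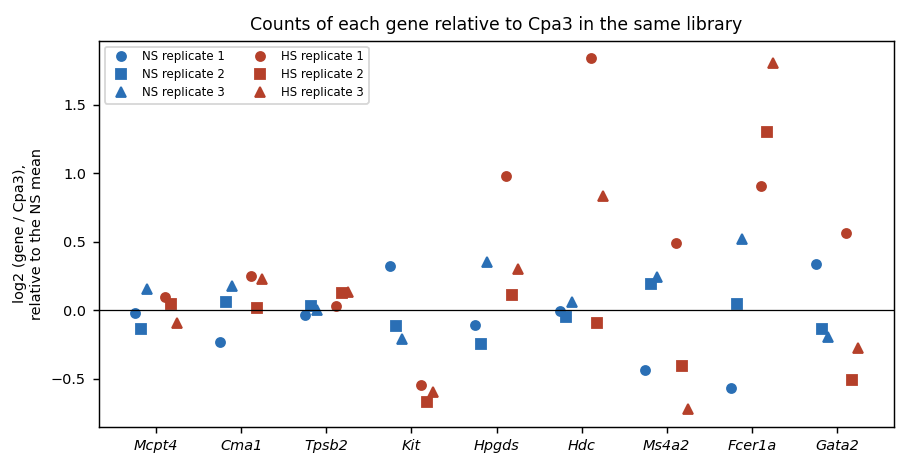
Log2 ratio of the counts of each gene to those of Cpa3 in the same library (y axis, set to 0 at the NS mean of each gene), in NS (blue) and HS (red) replicates 1, 2 and 3. Mcpt4, Cma1 and Tpsb2 stay near 0 in all 6 libraries, all 3 HS points lie below NS for Kit and above NS for Fcer1a, and Hdc spreads widely among the HS libraries.

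Relative to Ptprc (CD45), which all leukocytes express, the proteases had lower mean levels in HS than in NS. Ptprc itself rose 2.52-fold (edgeR adjusted p = 0.0334), with 90.5 ± 35.7 CPM in HS beside 35.9 ± 0.809 in NS (SD, n = 3), a call lost without HS replicate 3 and without any 1 of the NS replicates. The log2 ratio of Mcpt4 to Ptprc was -1.235, 0.19 and -0.53 in HS replicates 1 to 3 and 0.08, -0.03 and 0.28 in NS replicates 1 to 3. HS replicates 1 and 3 were thus below NS and HS replicate 2 was within it, as also for Cma1. For Cpa3 and Tpsb2, HS replicates 1 and 3 were below NS as well, but HS replicate 2 was above every NS library. It stood at 0.005 for Cpa3, against -0.042 to -0.02 in NS, and at -1.967 for Tpsb2, against -2.178 to -2.103. The mean difference from NS in this ratio was -0.635 for Mcpt4, -0.485 for Cma1, -0.65 for Cpa3, -0.55 for Tpsb2, -1.26 for Kit, -0.86 for Ms4a2, -0.73 for Gata2 and -0.19 for Hpgds. It was 0.69 for Fcer1a and 0.21 for Hdc. These ratios were given no test.

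Per kilobase of exon, Mcpt4 had the highest level of the 10 genes in both groups, 53.8 ± 4.59 CPM per kb in HS and 35.1 ± 3.37 in NS (SD, n = 3). Cpa3 (35.4 ± 4.65 and 23.2 ± 0.545 CPM per kb) and Cma1 (29.8 ± 4.03 and 17.5 ± 2.71) followed, and they overlapped each other in HS but not in NS. In NS the order went on with Kit (6.48 CPM per kb), Tpsb2 (5.10) and Hpgds (3.13), each without overlap with the next. In HS, Tpsb2 (8.40 CPM per kb), Hpgds (6.54) and Kit (6.42) came next, and each overlapped its neighbour. Fcer1a was seventh in both groups, at 3.46 ± 1.502 CPM per kb in HS and 0.821 ± 0.340 in NS. In HS it overlapped Hdc, which overlapped Gata2, and in NS it overlapped Gata2, which overlapped Hdc. Ms4a2 was lowest in both groups (0.524 and 0.388 CPM per kb).

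The genes whose profile over the 6 libraries was nearest to the mean of the 4 proteases were Enah, Peg3, Mylk, Pmaip1 and Fbln5, among 11541 candidates with a mean of at least 5 CPM. Nearness was the root mean square difference of centred log2 CPM, which ran from 0.0860 for Enah to 0.112 for Fbln5. Enah encodes a regulator of actin, Peg3 an imprinted zinc finger protein, Mylk the myosin light chain kinase, Pmaip1 a pro-apoptotic protein and Fbln5 a protein of elastic fibres. By the same measure Hpgds ranked 3400, Kit 5282 and Hdc 10914, and Fcer1a, Ms4a2 and Gata2 had too few counts to be candidates. This ranking over 6 libraries carries no test.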

How the data were processed

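RNA sequencing measured 3 HS and 3 NS skin scar libraries. Per the file headers, the deposited values used are the authors' counts of each gene, whole numbers that were not normalized. The submitters' processing notes name HTSeq 0.9.1, HISAT2 2.0.4, cutadapt 1.9.3, edgeR and the build mm10. The sources used here give no settings and no strand. Per the labels' protocols, RNA was depleted of ribosomal RNA and read as 150 bp paired ends. The 6 columns of normalized values were not used.

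Genes were kept by filterByExpr (minimum count 10), scaled by TMM and tested with edgeR 4.0.16 in R 4.3.3 (glmQLFit and glmQLFTest, robust, group as the only term), with Benjamini-Hochberg adjustment over all genes. CPM uses TMM-scaled totals, and log2 CPM a prior count of 2. Ratios were taken after adding 2 counts. The procedure was tested on simulated counts. Alternatives were other scalings, filters, DESeq2 1.42.0, limma-voom (limma 3.58.1), no robust step, the replicate number as a term and each library left out.

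The members and 15 further gene lists were chosen with earlier results of these data known. Of 151 list entries, 141 were in the table. The text could name the members, Ptprc, any gene of the protease, identity, basophil and growth lists, the 2 smallest p-values of each other list and the 5 nearest profiles. Fcer1g, Lyn and Ly6g lie outside this rule and were chosen after their values were seen. Coordinates and exon lengths come from the GENCODE annotation of GRCm38 (mm10), which matched 17398 identifiers. Replicate libraries differed by more than counting error (chi-square per gene at least 14.2).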

Additional observations from a re-analysis of the deposited data

How the results depend on the processing

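Of the mast cell genes 7 were called higher in HS, and 7 again with DESeq2-type size factors, both other filters, DESeq2, no robust step, and without HS replicates 1 or 2. Library totals alone and the replicate block gave 6 (Tpsb2 lost), and limma-voom gave 4 (Tpsb2, Hdc and Fcer1a lost). Over the fits that left out 1 library the count ran from 0 to 7, and 0 were called lower in each. In all, 1284 genes were called, 2435 with DESeq2, and from 25 to 3257 when 1 library was left out; 71.6% of the calls were higher in HS, against 61.4% with library totals alone. The log2 fold changes of the 7 called genes kept their sign in all 14 alternatives. Kit changed sign without HS replicate 1 (0.065) and without NS replicate 1 (0.133), and ran from -0.123 to 0.133 over the fits without 1 library. Ratios to Cpa3 kept their direction with 0.5 counts added, but with 1 library left out the difference between groups ran from -0.05 to 0.095 for Mcpt4, from -0.565 to 0.044 for Ms4a2 and from -0.393 to 0.143 for Gata2. The cause of these changes was not tested. The labels do not say that the replicate numbers pair samples, so these were not taken as pairs. Same-numbered libraries did not deviate together (r from 0.013 to 0.036). With the replicate block 1001 genes were called in all. Ms4a2 had 17 to 54 counts per library, which limits its precision.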
